A study of Mus musculus with 28 samples.

Results

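The comparison set a population labelled pro-HSC/HPC against hemogenic endothelium (HE), with 3 libraries of each, both sorted from mouse embryos at E9.5. HSC and HPC stand for hematopoietic stem and progenitor cell, and HE is the endothelium that gives rise to blood. The 6 libraries were chosen by the names of their count columns out of 28 libraries from 9 populations over 3 embryonic days, and they were described across all genes: 15238 of the 24015 genes in the table passed the filter on low counts and were tested. Each library came from 100 cells that went straight into lysis buffer and were amplified with a kit for ultra-low input, SMARTer. Cells of both groups carried the genotype labelled 23GFP transgenic and came from tissue labelled PAS+VU, a term left unexpanded, with no treatment given. At E10.5, pre-HSC I (3 libraries) and HE (3 libraries), used near the end for comparison, carried the same genotype label and came from tissue labelled AGM+VU. The labels give neither the sort gates, nor what drives the transgene, nor how many embryos went into a library. The series text calls the replicates biological, yet nothing says that they came from separate embryos or litters. The p-values thus measure only the spread between replicate libraries, which may be technical. That spread was estimated over all 28 libraries of the series.

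In the embryo, blood stem and progenitor cells form from a small part of the arterial endothelium in the endothelial-to-hematopoietic transition. Cells of the vessel wall switch on the transcription factor Runx1, round up and leave the wall, while blood genes come on and endothelial genes are turned down. In mice the repressors Gfi1 and Gfi1b take part in turning down the endothelial genes. Primitive red cells made by the yolk sac already circulate at this stage and are filled with embryonic hemoglobins, and the yolk sac also gives rise to megakaryocytes, which shed platelets, and to macrophages.

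The 6 libraries held between 20494835 and 26075910 counts, and 14512 to 16050 genes had a count in each. Levels are given as CPM, the usual measure of reads relative to the size of a library, after scaling of the libraries, listed in the order of replicates 1, 2 and 3, and means come with the SD over the 3 libraries of a group. In these libraries 3 counts, taken as the limit of detection, equalled 0.111 to 0.142 CPM. Intervals and limits cover counting error only. Of the endothelial markers, Cdh5 was at 521 CPM or more in each library and Cldn5, the lowest of them, at 39.1 CPM or more. Of the progenitor markers, Runx1, Myb, Kit, Itga2b and Spn were found in all 3 pro-HSC/HPC libraries, while Ptprc, which encodes CD45, lay between 0.749 and 1.25 CPM there.

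Hemoglobin reads set pro-HSC/HPC replicates 2 and 3 apart from the other 4 libraries. Transcripts of hemoglobin genes made up 0.00073% of the counts in pro-HSC/HPC replicate 1 (95% exact Clopper-Pearson interval 0.000628 to 0.000843%). They made up 1.11% in replicate 2 (1.1 to 1.11%) and 0.422% in replicate 3 (0.419 to 0.424%). In HE the shares were 0.00247%, 0.000362% and 0.000566%, so that pro-HSC/HPC replicate 1 lay within the range of HE and replicates 2 and 3 far above it. Among the other 22 libraries of the series 1 stood high, E10.5 pre-HSC I replicate 3 with 0.173%, and the next reached 0.00299%.

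Nearly all of these reads fell on 3 embryonic globins of primitive red cells: the beta-like Hbb-y and Hbb-bh1 and the alpha-like Hba-x. Hbb-y (chromosome 7, 111000268 to 111001721 in mm9) had 147, 123627 and 40964 counts in pro-HSC/HPC against 210, 46 and 27 in HE. For Hbb-bh1 the counts were 15, 72580 and 32517 in pro-HSC/HPC against 64, 21 and 65 in HE, and for Hba-x they were 23, 92622 and 34660 against 229, 21 and 30. Replicate 1 of pro-HSC/HPC was thus inside or below the range of HE for each of the 3 genes. Its few globin counts also differed in makeup, with Hbb-y at 79.5% of the 3 genes together, while Hbb-y, Hbb-bh1 and Hba-x held 42.8%, 25.1% and 32.1% in replicate 2 and 37.9%, 30.1% and 32.1% in replicate 3. Of the 12 hemoglobin genes measured, 7 were at 0 in all 6 libraries, among them the adult genes Hba-a1, Hba-a2 and Hbb-b1, which have near-identical copies whose reads the counting may have dropped or split.

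The test across all genes placed these globins among the genes higher in pro-HSC/HPC. Their log2 differences were 8.98 ± 1.97 (SE) for Hbb-y, 9.24 ± 1.96 for Hbb-bh1 and 8.62 ± 1.97 for Hba-x, with Benjamini-Hochberg adjusted p of 0.025, 0.019 and 0.03 in edgeR's quasi-likelihood test. Here and below the SE is the size of the log2 difference over the square root of the test's F value, and no separate estimate of the fit. For genes near 0 counts in HE it does not measure how precise the fitted value is. The calls did not hold without replicate 2, which left adjusted p of 0.091, 0.065 and 0.11 in edgeR. They were also lost when any 1 of the HE libraries was left out (edgeR adjusted p between 0.077 and 0.22) and when the replicate number was fitted as a block (edgeR adjusted p 0.15, 0.21 and 0.34). With replicate 1 as the sole pro-HSC/HPC library the values for Hbb-bh1 and Hba-x were -2.03 and -2.33.

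Other red cell genes had a like pattern over the libraries. Hemgn, a nuclear protein of red cell precursors, stood at 0.524, 15.9 and 7.09 CPM in pro-HSC/HPC with no count in HE, which made it at least 164.9-fold higher (edgeR adjusted p = 0.011). It was the 1 gene called among the 20 tested genes of the erythroid list without hemoglobins, and its call was lost without pro-HSC/HPC replicate 2 or any 1 HE library (edgeR adjusted p 0.056 to 0.073). The level of that list, the mean log2(CPM + 1) of its tested members, was 1.23, 3.19 and 2.70 in pro-HSC/HPC against 1.24, 1.16 and 1.05 in HE. For every marker list, a gene near 0 in HE is tested only if other populations carry it past the filter. Levels and medians of tested members can therefore lean toward pro-HSC/HPC. Summed over all 23 genes in the table it was 127, 497 and 294 CPM in pro-HSC/HPC against 93.8, 141 and 96.1 CPM in HE, so replicate 1 again lay inside the range of HE. Hemgn, Epb4.1 and Gata1 of this list were called when the replicate block was fitted.

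**Figure D1:**
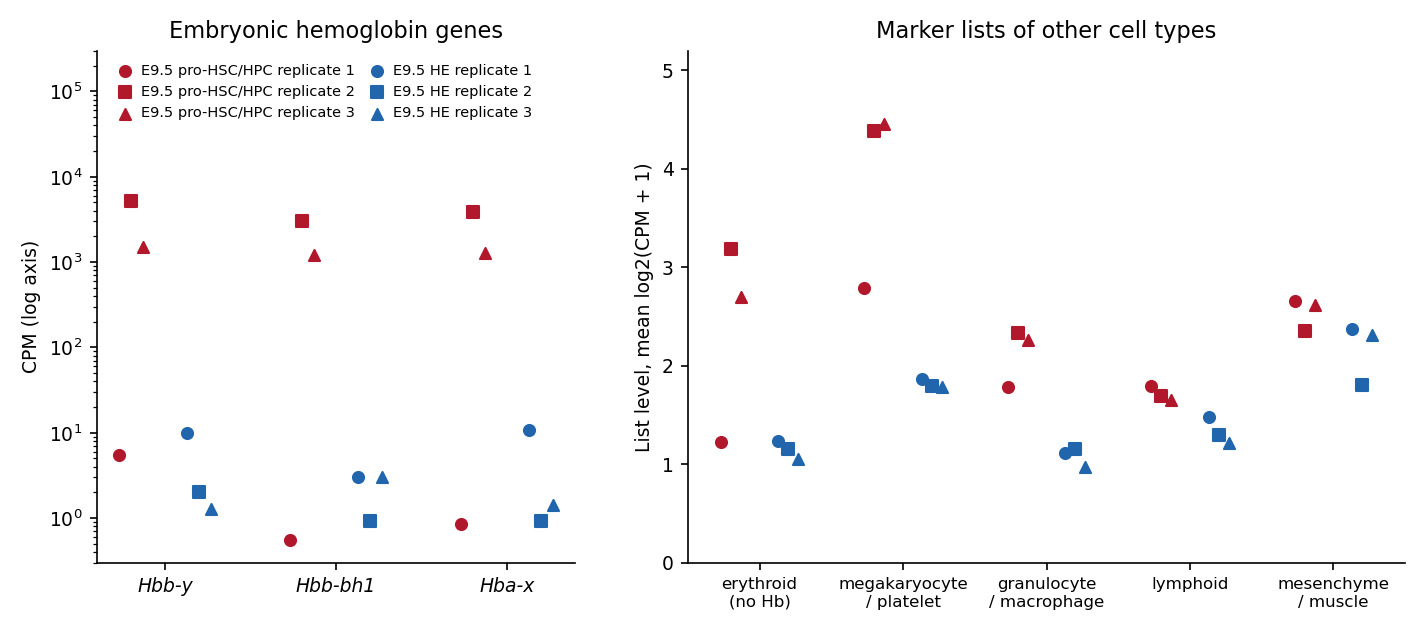
Left, CPM of 3 embryonic hemoglobin genes on a log axis; right, the level of 5 marker lists as the mean log2(CPM + 1) of the tested members. Each symbol is 1 library, red for E9.5 pro-HSC/HPC and blue for E9.5 HE: pro-HSC/HPC replicates 2 and 3 (square and triangle) lie above 1000 CPM for each globin, and replicate 1 (circle) lies with HE.

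Of the other marker lists, those of megakaryocytes and platelets and of granulocytes and macrophages held called genes. Megakaryocyte and platelet genes had a level of 2.79, 4.38 and 4.46 in pro-HSC/HPC against 1.87, 1.8 and 1.78 in HE, and granulocyte and macrophage genes one of 1.78, 2.33 and 2.26 against 1.11, 1.16 and 0.977. All 3 pro-HSC/HPC libraries were above HE by this level in both lists, replicate 1 least. Summed over the 26 genes of each list, the values were 1412, 1858 and 2267 CPM in pro-HSC/HPC against 1358, 1289 and 1421 CPM in HE for platelet genes, and 76.9, 149 and 112 CPM against 49.9, 44.9 and 41.4 CPM for myeloid genes. Replicate 1 thus lay within HE for the sum of platelet genes. A sum is led by the genes of highest CPM, here high in HE too, and does not measure platelet RNA. By level, replicate 1 stood above HE, at 2.79 against 1.78 to 1.87. Defining macrophage genes were near or at the limit: C1qa, C1qb and C1qc had no count in the 6 libraries, Emr1 had none in pro-HSC/HPC, and Csf1r was at 0.412, 0.667 and 0.334 CPM in pro-HSC/HPC against 0.0473, 0.436 and 0.61 CPM in HE. In the lymphoid list all 3 pro-HSC/HPC libraries also lay above HE by level, at 1.8, 1.69 and 1.65 against 1.48, 1.3 and 1.22, though not by sum. By sum, so did the mast cell list (125, 124 and 125 CPM in pro-HSC/HPC against 92.6, 73.2 and 52.9 CPM in HE), the germ cell list (369, 387 and 348 against 263, 245 and 238 CPM) and the mesenchyme and smooth muscle list (642, 723 and 598 against 591, 376 and 589 CPM). By level the germ cell and mesenchyme lists overlapped, and the lowest pro-HSC/HPC and the highest HE library were both at 2.41 for mast cell genes. The cardiac, neural, endoderm and mesonephros lists overlapped by both measures. No gene of the mast cell, lymphoid, mesenchyme and smooth muscle, cardiac, neural, endoderm, mesonephros or germ cell lists was called, of 3, 9, 17, 14, 6, 10, 5 and 7 tested in edgeR. At an unadjusted p under 0.05, 9 of these genes were higher and 3 lower, and under the replicate block Ifitm3, on the germ cell and interferon lists, was called higher. What red cell or platelet RNA contributed to the results below was not tested, and in bulk libraries fewer cells of a type and less RNA per cell cannot be told apart.

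Across all genes, edgeR called 100 of 15238 (0.656%) at a Benjamini-Hochberg adjusted p under 0.05: 77 were higher in pro-HSC/HPC (0.505%) and 23 were lower (0.151%). At an unadjusted p under 0.05 there were 633 higher and 427 lower. Without any test, the pro-HSC/HPC libraries all lay above HE for 7.15% of genes and all below it for 6.86%. Of the called genes, 73 of the 77 higher and all 23 lower had no overlap between the groups. The higher genes had a median log2 difference of 4.24, also with the 14 genes that had no count in HE set to their lower bound, and the 23 lower genes had a median of -1.81, beside 0.02 for all genes tested. Of the genes that rose, 21 had 3 counts or fewer over the HE libraries. Each gene that fell averaged 16.8 CPM or more in HE.

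The number of calls depended on single libraries and on the pairing. It was 51, 54 and 50 without HE replicate 1, 2 or 3, and 66 without pro-HSC/HPC replicate 2. Under the replicate block, which pairs same-numbered libraries where the main fit does not, it was 218, of which 132 were higher and 86 lower. Those 218 held 97 of the 100 genes. With replicate 1 as the sole pro-HSC/HPC library, which is then assumed to vary like the other groups, 24 genes were called, 22 higher and 2 lower, and 22 of them were among the 100. In that fit 75 of the 77 higher genes and 23 of the 23 lower genes kept their direction. Replicate 1 was above each HE library for 73 of the 77 higher genes. The other 4 were Hbb-y, Hbb-bh1, Hba-x and Smim1, a small membrane protein gene of red cells.

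**Figure D2:**
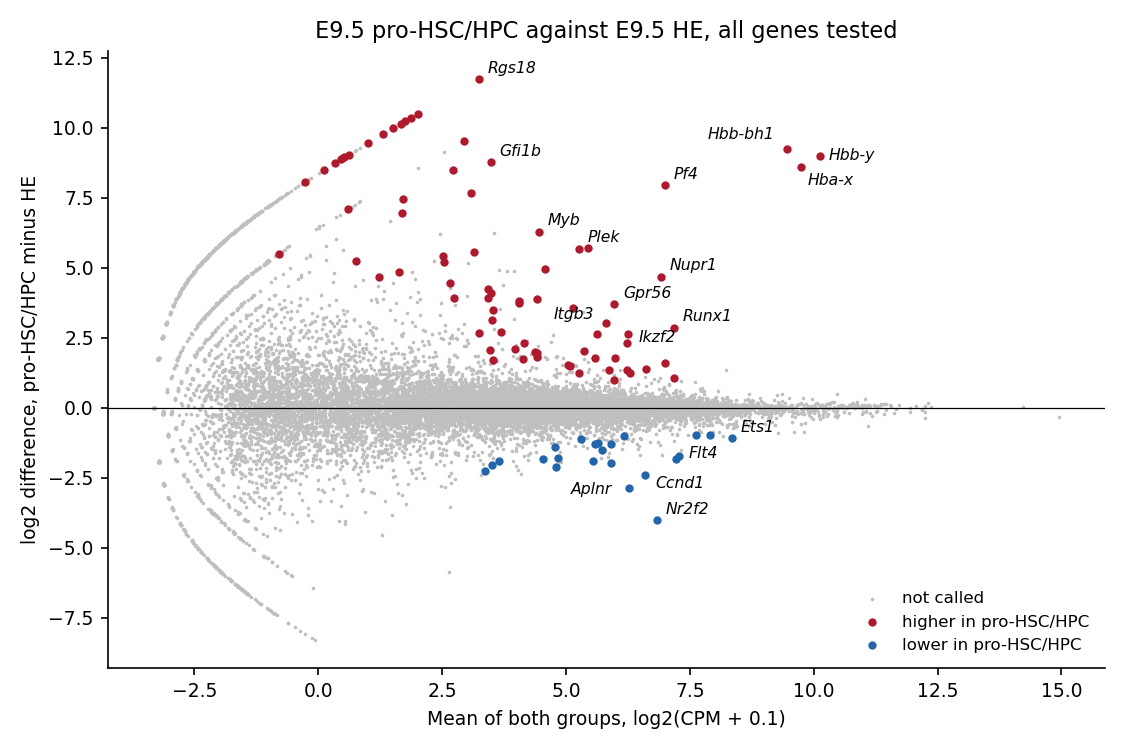
Log2 difference of E9.5 pro-HSC/HPC minus E9.5 HE (vertical axis, fitted by edgeR) against the mean level of both groups as log2(CPM + 0.1), for the 15238 genes tested. Red points are the 77 genes called higher in pro-HSC/HPC, blue points the 23 called lower, and grey points the others; fitted values on the curved lines at the left belong to genes with few or no counts in 1 group and are no bounds.

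Transcription factors of blood were among the clearest rises. Runx1, required for the transition itself (chromosome 16, 92601711 to 92826319, minus strand in mm9), was at 274, 226 and 263 CPM in pro-HSC/HPC and at 36.9, 30.8 and 37.4 CPM in HE. The groups lay far apart and HE already held the transcript, and the log2 difference was 2.86 ± 0.36 (edgeR adjusted p = 5.2e-05). Myb, a factor of definitive progenitors, was at 39.5, 39.4 and 50.1 CPM in pro-HSC/HPC but at 0.473, 1.13 and 0 CPM in HE (6.29 ± 0.86, edgeR adjusted p = 0.00011). The zinc finger repressor Gfi1b was at 6.89, 36.0 and 23.7 CPM in pro-HSC/HPC with 3 counts over the HE libraries, a ratio of 473 after scaling for depth (95% interval from counting 162 to 2297, edgeR adjusted p = 0.00095). Its relative Gfi1 was at 44.9, 27.0 and 47.1 CPM in pro-HSC/HPC and at 3.50, 3.27 and 1.36 CPM in HE (3.87 ± 0.82, edgeR adjusted p = 0.018). Both repressors thus had no overlap between the groups, but Gfi1b was lowest and Gfi1 near its highest in pro-HSC/HPC replicate 1.

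A pair of Ikaros family genes rose as well. Ikzf2, which encodes Helios, was at 118, 136 and 142 CPM in pro-HSC/HPC and at 15.4, 17.7 and 30.1 CPM in HE (2.65 ± 0.43, edgeR adjusted p = 0.00095). Ikzf1, the Ikaros gene of lymphoid and other blood cells, was at 7.42, 9.46 and 16.5 CPM against 0.142, 0 and 0.75 CPM (5.22 ± 1.22, edgeR adjusted p = 0.043). Nfe2, a factor of platelet formation, was at 10.2, 15.1 and 13.2 CPM in pro-HSC/HPC with 2 counts over HE, a ratio of 418 (115 to 3456, edgeR adjusted p = 0.0053). Cebpb, a leucine zipper factor of myeloid and other cells, was at 34.0, 27.0 and 30.9 CPM against 1.94, 2.62 and 1.97 CPM (3.81 ± 0.78, edgeR adjusted p = 0.012).

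Those 8 genes were the calls among 27 tested blood transcription factors, and none fell. Over all genes tested, 0.505% were called higher and 0.151% lower, shares to set beside the counts of every list. This list and the others were chosen with earlier results of these data known, so a count above these shares is no test of a list. The median log2 difference of the blood transcription factors was 0.76, and in 13 of the 27 the pro-HSC/HPC libraries all lay above HE (7.15% of all genes did). Runx1, Myb, Gfi1b and Ikzf2 were called in each run that left out 1 library. Without HE replicate 1, 2 or 3 those 4 were the only calls of the list, and with replicate 1 as the sole pro-HSC/HPC library the calls were Runx1, Myb and Gfi1b. Ikzf1 lost its call in all 6 runs (edgeR adjusted p 0.053 to 0.24), Gfi1 in all but the one without pro-HSC/HPC replicate 2 (0.051 to 0.15), and Nfe2 (0.052 to 0.066) and Cebpb (0.069 to 0.098) without any 1 HE library.

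Other known factors of blood did not pass the test in the main fit. Gata2, which acts in HE as well as in stem cells, was at 199, 178 and 143 CPM in pro-HSC/HPC and at 113, 91.3 and 89.5 CPM in HE (0.82 ± 0.21, edgeR adjusted p = 0.065). Tal1 (0.50 ± 0.30, edgeR adjusted p = 0.92) and Lmo2 (-0.61 ± 0.35, edgeR adjusted p = 0.85), partners in a blood and endothelial complex, overlapped between the groups. Fli1, an ETS factor of both lineages, was at 1000, 826 and 922 CPM in pro-HSC/HPC against 1012, 981 and 1065 CPM in HE. Spi1, the myeloid factor PU.1, was at 4.53, 4.17 and 7.13 CPM in pro-HSC/HPC and at 0.662, 0 and 0.0469 CPM in HE, with no overlap, but missed the threshold (edgeR adjusted p = 0.17). Gata1, the red cell and megakaryocyte factor, had no count in pro-HSC/HPC replicate 1 or in HE and was at 9.29 and 5.46 CPM in replicates 2 and 3, the 2 libraries with hemoglobin reads (edgeR adjusted p = 0.066). With the replicate block Gata1 and Gata2 were called (edgeR adjusted p 0.048 and 0.015), as was Etv6. Another method for counts, DESeq2, called Gata2 and Spi1 (DESeq2 adjusted p 0.011 and 0.013) but not Gata1, Tal1 or Lmo2. Without pro-HSC/HPC replicate 1, edgeR called Gata1.

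**Figure D3:**
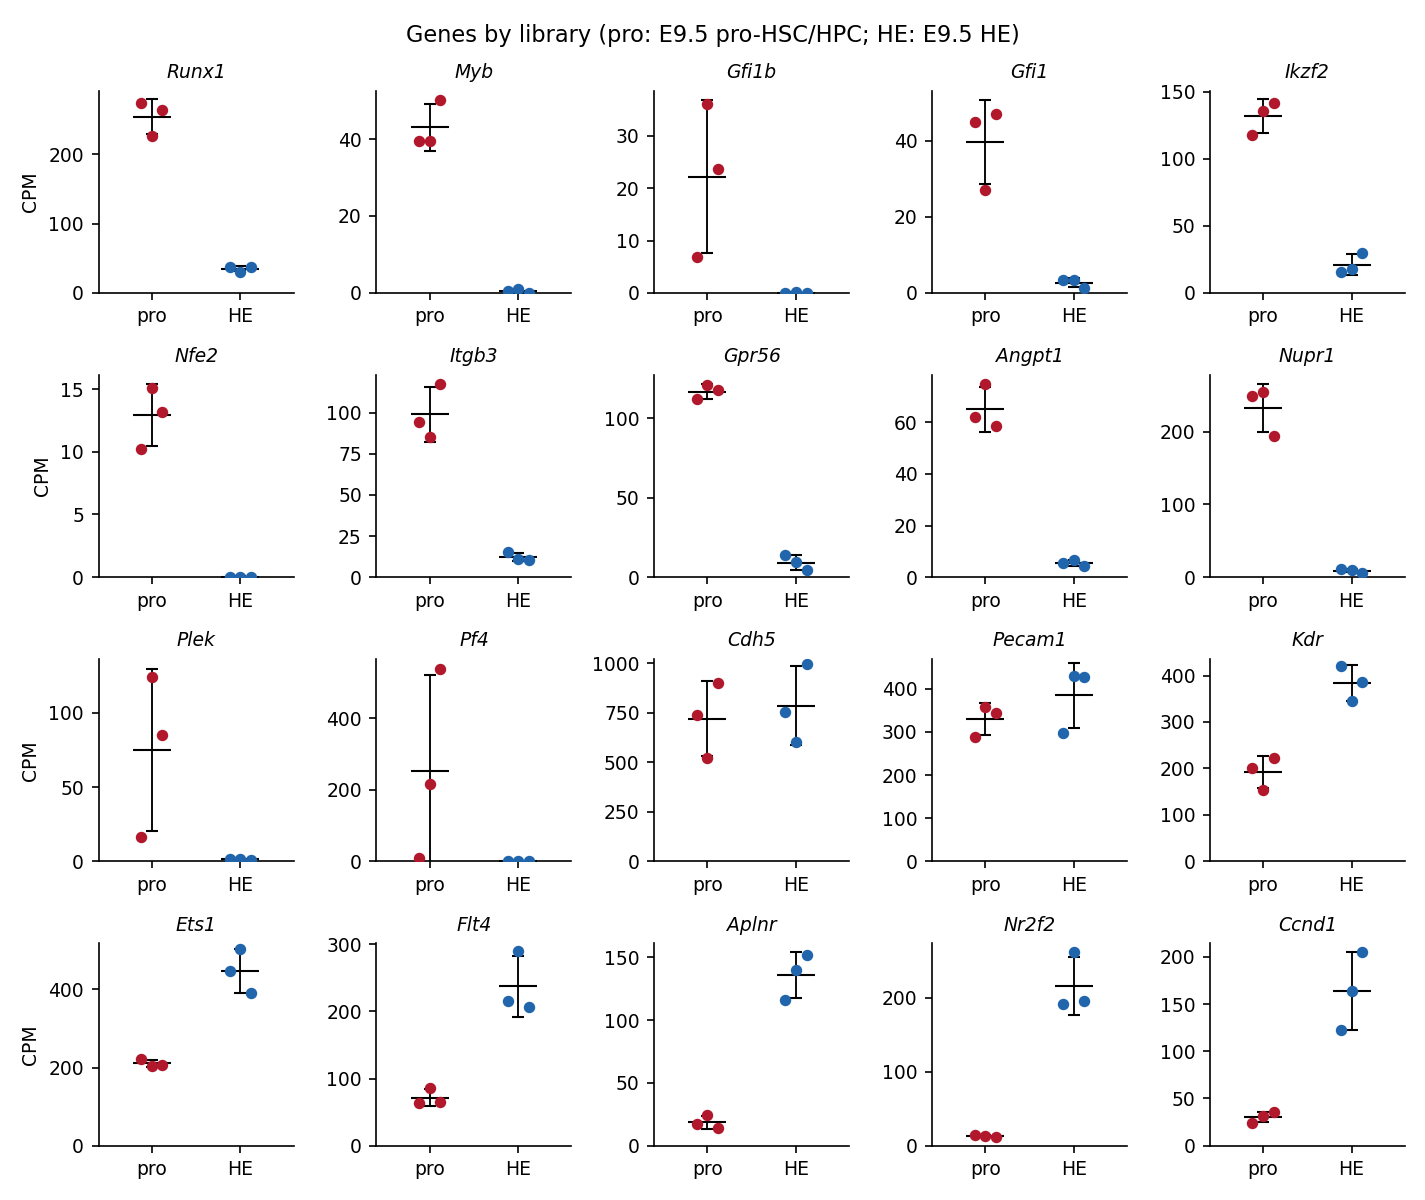
CPM of 20 genes in each library, red for E9.5 pro-HSC/HPC (pro, left) and blue for E9.5 HE (right), with bars for the mean and the SD of 3 libraries, cut at 0. The upper 12 genes lie higher in pro-HSC/HPC, Cdh5 and Pecam1 overlap, and the last 6 lie lower, Kdr among them without a call in the main fit.

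The start regions of called genes were searched for 3 short motifs of factors with a role in this transition, using the promoter table of RefSeq for GRCm38.p6, a later build than the mm9 of the count table. It holds 250 bases before and 50 bases after a start, and 62 of the 77 higher genes and 16 of the 23 lower genes matched by symbol. For each gene only the first start listed was searched. The RUNX motif TGTGGT was found on either strand in 13 of the 62 (21%) and 2 of the 16 (12.5%), beside 12.5% of the 11308 tested genes with a promoter. The GATA motif AGATAA was in 8 (12.9%) and 1 (6.25%), beside 6.84%, and the ETS motif AGGAAG in 30 (48.4%) and 6 (37.5%), beside 33.8%; over all 32851 promoters of the table the shares were 16.8%, 11.2% and 35.4%. A match describes letters and is no binding site. The promoters of 5 genes are shown, 5′ to 3′ on the strand of the gene with matches in capitals. Runx1 was taken from the factors, Pf4 from platelet genes, Hemgn from red cell genes, Fcer1g from leukocyte genes and Nr2f2 from the genes that fell. They lie at chr16:92826025-92826324 (minus strand, the first of 2 starts listed), chr5:90772185-90772484 (plus), chr4:46404134-46404433 (minus), chr1:171234300-171234599 (minus) and chr7:70366697-70366996 (minus).
Runx1: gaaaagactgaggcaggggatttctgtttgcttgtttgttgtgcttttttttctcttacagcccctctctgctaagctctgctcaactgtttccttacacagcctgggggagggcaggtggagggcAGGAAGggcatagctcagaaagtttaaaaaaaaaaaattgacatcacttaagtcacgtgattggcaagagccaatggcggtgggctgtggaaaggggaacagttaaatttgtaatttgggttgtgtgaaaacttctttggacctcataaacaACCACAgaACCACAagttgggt
Pf4: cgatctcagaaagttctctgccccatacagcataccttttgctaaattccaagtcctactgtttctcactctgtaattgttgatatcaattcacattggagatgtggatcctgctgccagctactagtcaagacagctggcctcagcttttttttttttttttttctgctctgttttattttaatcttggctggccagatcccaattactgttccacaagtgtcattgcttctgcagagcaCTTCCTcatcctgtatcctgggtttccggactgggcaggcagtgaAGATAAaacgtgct
Hemgn: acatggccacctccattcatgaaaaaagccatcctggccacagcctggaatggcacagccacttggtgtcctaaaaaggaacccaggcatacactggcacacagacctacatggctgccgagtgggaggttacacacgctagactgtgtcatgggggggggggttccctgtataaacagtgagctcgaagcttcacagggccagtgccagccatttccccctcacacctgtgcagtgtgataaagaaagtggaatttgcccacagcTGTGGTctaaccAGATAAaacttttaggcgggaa
Fcer1g: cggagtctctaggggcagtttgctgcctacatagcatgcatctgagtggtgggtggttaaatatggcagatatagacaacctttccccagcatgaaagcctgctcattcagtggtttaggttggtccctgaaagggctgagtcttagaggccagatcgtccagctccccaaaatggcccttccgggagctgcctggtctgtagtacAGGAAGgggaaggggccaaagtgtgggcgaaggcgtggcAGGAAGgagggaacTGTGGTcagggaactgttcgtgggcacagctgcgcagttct
Nr2f2: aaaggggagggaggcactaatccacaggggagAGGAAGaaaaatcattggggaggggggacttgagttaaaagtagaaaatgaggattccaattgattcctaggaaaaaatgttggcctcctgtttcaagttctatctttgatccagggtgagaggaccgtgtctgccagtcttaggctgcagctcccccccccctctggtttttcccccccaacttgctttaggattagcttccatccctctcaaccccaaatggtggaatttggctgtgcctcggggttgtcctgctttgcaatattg
In these windows Runx1 held a pair of RUNX matches downstream of its start and an ETS match upstream, and Hemgn a RUNX and a GATA match. Pf4 held an ETS and a GATA match, Fcer1g a RUNX match and a pair of ETS matches, and Nr2f2 an ETS match. All 5 hold a match and are not typical of their groups. None of the 3 motifs was found in the window searched for the factors Myb, Gfi1, Gfi1b, Ikzf1 and Cebpb. The same held for the platelet genes Plek and Treml1, the globins Hbb-y and Hba-x, Coro1a, and Flt4 among the genes that fell. Gfi1, Ikzf1 and Coro1a have 2 starts listed, of which the later was not searched.

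Among regulators of stem cells, 4 of 22 tested rose and none fell, beside 0.505% and 0.151% of all genes tested. The list median was 0.85. Gpr56, an adhesion receptor of blood stem cells (now named Adgrg1), was at 112, 121 and 118 CPM in pro-HSC/HPC and at 13.7, 9.25 and 4.27 CPM in HE (3.69 ± 0.49, edgeR adjusted p = 1e-04). Angpt1, the ligand of the endothelial receptor Tek, was at 61.9, 74.9 and 58.4 CPM against 5.39, 6.59 and 4.50 CPM (3.56 ± 0.60, edgeR adjusted p = 0.0016). For both genes the 3 pro-HSC/HPC libraries lay close together and well above HE. Meis1, a homeobox factor, averaged 107 ± 5.34 CPM in pro-HSC/HPC and 42.5 ± 7.97 CPM in HE (1.33 ± 0.24, edgeR adjusted p = 0.004), and Mycn, a MYC family factor, 142 ± 16.6 and 54.4 ± 12.2 CPM (1.38 ± 0.33, edgeR adjusted p = 0.049). Mycn lost its call in all 6 runs without 1 library (edgeR adjusted p 0.085 to 0.3) and Meis1 in the one without HE replicate 3 (0.066), where 2 calls were left on the list. Fitting the replicate block gave 8 higher genes on the list, among them the 4 above, Hlf, Procr and Hoxa9. Mecom, a factor of HE and stem cells, was at 256, 171 and 228 CPM in pro-HSC/HPC and at 238, 159 and 171 CPM in HE, where the groups overlapped.

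Surface receptors that mark blood progenitors gave 1 call among 28 tested genes, beside 0.505% of all genes called higher. The list median was 0.72, or 0.67 with genes at 0 in 1 group set to their bound. The call was Itgb3, the integrin beta3 chain (chromosome 11, 104469314 to 104531785 in mm9), at 94.4, 85.1 and 118 CPM in pro-HSC/HPC and averaged 12.2 ± 2.45 CPM in HE, with no overlap (3.03 ± 0.36, edgeR adjusted p = 4.1e-05). It was called in each run without 1 library and with replicate 1 as the sole pro-HSC/HPC library. Itga2b, its partner chain CD41, was at 10.2, 11.1 and 26.0 CPM against 6.95, 5.81 and 11.7 CPM and overlapped (0.95 ± 0.43, edgeR adjusted p = 0.64). Kit, the stem cell factor receptor, was at 125, 121 and 124 CPM in pro-HSC/HPC against 91.9, 72.4 and 52.9 CPM in HE, with no overlap but no call (0.77 ± 0.35, edgeR adjusted p = 0.67). Spn, which encodes CD43, was at 9.70, 6 and 13.6 CPM against 0.0945, 0.0436 and 2.81 CPM (3.31 ± 1.09, edgeR adjusted p = 0.3), and it was called without HE replicate 3. Cd44, an adhesion receptor, averaged 176 ± 16.5 and 117 ± 14.5 CPM (0.59 ± 0.30, edgeR adjusted p = 0.74). Csf1r, Ly6a, which encodes Sca-1, and Ccr2 were under 3 CPM in all 6 libraries. Under the replicate block Itgb3 and Flt3 were called higher and Cd34 lower.

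Signalling and actin genes of leukocytes gave 10 calls of 44 tested, all higher (0.505% of all genes were), and a list median of 1.38. Rgs18, which dampens G protein signals in platelets (chromosome 1, 146599971 to 146622551 in mm9), was at 2.47, 34.6 and 19.0 CPM in pro-HSC/HPC with no count in HE, at least 395.5-fold higher (edgeR adjusted p = 5.2e-05). Plek, a substrate of protein kinase C in platelets and leukocytes, was at 16.4, 124 and 84.8 CPM against 1.46, 1.92 and 0.985 CPM (5.68 ± 0.62, edgeR adjusted p = 9.5e-06). In both genes replicate 1 was far below replicates 2 and 3 and still above each HE library, and both were called with replicate 1 as the sole pro-HSC/HPC library. Dock2, an activator of Rac in leukocytes, was at 15.4, 8.29 and 11.9 CPM in pro-HSC/HPC and at 1.04, 0.131 and 0.469 CPM in HE (4.44 ± 0.91, edgeR adjusted p = 0.012). Fcer1g, the signalling chain of Fc receptors, was at 9.36, 27.2 and 24.3 CPM against 0.709, 1.92 and 0.563 CPM (4.24 ± 0.85, edgeR adjusted p = 0.0097).

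The other calls of this list were Ptpn6, Was, Ptprc, the actin binding gene Coro1a, the lysosomal gene Laptm5 and the tyrosine kinase gene Btk. Ptpn6, the phosphatase SHP-1, averaged 29.6 ± 4.88 CPM in pro-HSC/HPC and 5.97 ± 1.65 CPM in HE (2.31 ± 0.46, edgeR adjusted p = 0.0084). Was, the actin regulator lost in Wiskott-Aldrich syndrome, averaged 17.5 ± 0.796 and 5.30 ± 1.49 CPM (1.72 ± 0.37, edgeR adjusted p = 0.021), with nearly the same level in the 3 pro-HSC/HPC libraries. Ptprc was called on 72 counts in pro-HSC/HPC and 1 count in HE, a ratio of 60.7 (95% interval from counting 10.55 to 2429). In runs without 1 library only Rgs18 and Plek always kept their call, and both are also on the megakaryocyte and platelet list. Fcer1g is also on the granulocyte and macrophage list. Dock2 and Ptpn6 lost theirs without HE replicate 2 or 3, Fcer1g without HE replicate 1 or 3, Btk without HE replicate 1 or 2, Ptprc, Coro1a and Laptm5 in 5 of the 6 runs and Was in all 6. The number of calls on the list was 6 without pro-HSC/HPC replicate 2 and 4, 3 and 3 without HE replicate 1, 2 and 3, and it was 2 with replicate 1 as the sole pro-HSC/HPC library. Lcp1, which bundles actin and is common in leukocytes, went the other way by value, at 79.1, 78.0 and 64.4 CPM in pro-HSC/HPC and at 127, 142 and 113 CPM in HE (-0.79, edgeR adjusted p = 0.21), and was called lower with the replicate block, under which Rac2, a Rac GTPase of blood cells, was also called higher.

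Platelet and myeloid genes rose unevenly over the pro-HSC/HPC libraries. Of 25 tested megakaryocyte and platelet genes 7 rose, Pf4, Itgb3, Nfe2, Treml1, Plek, Rgs18 and Gfi1b, with a median of 3.77. Of these, Itgb3, Nfe2, Plek, Rgs18 and Gfi1b were counted on lists above too. Over all genes tested 0.505% rose. Pf4, the platelet chemokine CXCL4, was at 8.80, 215 and 538 CPM in pro-HSC/HPC and at 1.98, 0.960 and 0.141 CPM in HE (7.94 ± 1.27, edgeR adjusted p = 0.00095), and with replicate 1 as the sole library it was at 3.10 (edgeR adjusted p = 0.89). Treml1, a receptor of platelet granules, was at 0.412, 10.6 and 10.4 CPM with no count in HE, at least 153.6-fold higher (edgeR adjusted p = 0.025), and it kept its call in 1 of the 6 runs without a library. Of 26 granulocyte and macrophage genes 17 were tested, and 5 rose, Prtn3, Lyz1, Lyz2, Fcgr3 and Fcer1g. The median of the tested genes was 3.38, or 2.56 with genes at 0 in 1 group set to their bound. A gene near 0 in HE passes the filter only through other populations, so this median can lean high. The protease gene Prtn3 was at 2.77, 7.92 and 8.17 CPM in pro-HSC/HPC with 2 counts over HE (ratio 204, 56.1 to 1689, edgeR adjusted p = 9.5e-06) and was called in every alternative tried. Lyz2, a lysozyme gene whose reads may be split with its copy Lyz1, was at 7, 16.5 and 9.43 CPM against 0, 0.698 and 0.0469 CPM (edgeR adjusted p = 0.0067), a call lost without HE replicate 1 or 3. The number of calls on this list was 1, 3 and 1 without HE replicate 1, 2 and 3, 3 without pro-HSC/HPC replicate 2, and 1, Prtn3, with replicate 1 as the sole pro-HSC/HPC library. Under the replicate block Mpo, the myeloperoxidase gene, was called too.

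Several of the largest rises stood on no list. Nupr1, a small nuclear protein induced by stress (chromosome 7, 133766760 to 133768984 in mm9), was at 249, 254 and 194 CPM in pro-HSC/HPC and at 10.8, 10.2 and 6.10 CPM in HE (4.68 ± 0.57, edgeR adjusted p = 4.4e-05). Lgals9, the lectin galectin-9, was at 51.3, 151 and 52.9 CPM against 2.08, 2.36 and 0.469 CPM (5.69 ± 0.80, edgeR adjusted p = 0.00026). Pla2g4a, the cytosolic phospholipase that releases arachidonic acid, was at 49.2, 56.5 and 32.5 CPM against 0.567, 2.66 and 1.22 CPM (4.94 ± 0.83, edgeR adjusted p = 0.0015). All 3 were called in each alternative tried, among them the fit with replicate 1 as the sole pro-HSC/HPC library. Sla, an adaptor of antigen receptor signalling, was at 3.67, 23.6 and 18.4 CPM in pro-HSC/HPC with 1 count over HE (ratio 978, 175 to 38640, edgeR adjusted p = 0.00037), and Rab38, a small GTPase of lysosome-related organelles, at 12.5, 27.4 and 9.73 CPM against 0, 0.0436 and 0.188 CPM (7.66 ± 1.28, edgeR adjusted p = 0.0014). Genes with a mean of 10 CPM or more in pro-HSC/HPC were 57 of the 77.

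Further genes outside the lists, picked after their values were seen, are grouped here by known function. Alox5ap, which hands arachidonic acid to 5-lipoxygenase and so acts after Pla2g4a, was at 65.3, 120 and 69.3 CPM in pro-HSC/HPC and at 12, 14.4 and 14.3 CPM in HE (2.64 ± 0.41, edgeR adjusted p = 0.00068), and it kept its call in each run without 1 library. Genes of 3 coagulation factors rose. F13a1 was at 3.41, 9.34 and 6.80 CPM with no count in HE, at least 139.9-fold higher (edgeR adjusted p = 0.00069), and kept its call in all 6 runs. F5 had a log2 difference of 2.71 (edgeR adjusted p = 0.043) and F10 one of 2.04 (edgeR adjusted p = 0.024), each with its call in 1 of the 6 runs. F5 and F13a1 are known from platelets as well as from other sources. Among chromatin genes, the DNA methyltransferase gene Dnmt3b was at 102, 98.6 and 131 CPM in pro-HSC/HPC against 54, 36.5 and 48.6 CPM in HE (1.25 ± 0.22, edgeR adjusted p = 0.0027), called in 5 of the 6 runs. Jarid2, which binds the Polycomb complex PRC2, was at 213, 191 and 180 CPM against 104, 87.9 and 91.3 CPM (1.04 ± 0.23, edgeR adjusted p = 0.021), called in 1 of them. These were changes of about 1 on the log2 scale in genes that HE already held, and the groups did not overlap. Mfsd2b, a lipid exporter of red cells and platelets, was at 9.51, 21.2 and 18 CPM against 2.84, 2.92 and 1.83 CPM (2.68 ± 0.43, edgeR adjusted p = 0.00096) and kept its call in all 6 runs. Srgap3, a regulator of Rac, was at 4.91, 4.29 and 8.25 CPM against 0.189, 0.218 and 0.188 CPM (4.84 ± 0.66, edgeR adjusted p = 0.00012), and Fmnl1, a formin of leukocytes that builds actin filaments, at 4.87, 3.88 and 7.80 CPM with no count in HE, at least 121.6-fold higher (edgeR adjusted p = 0.00095). Both were called in every alternative tried.

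Among all 77 higher genes the pro-HSC/HPC libraries were not alike. Replicate 1 was the lowest of the 3 in 46 genes (59.7%), beside 26% of all genes tested, and its median log2 ratio to the mean of replicates 2 and 3 was -0.42, or -0.12 for the 23 lower genes. In 13 genes it was under 0.25 times that mean, a limit chosen after the values were seen: Rgs18, Plek, Sla, Treml1, Gfi1b, Pf4, Tspan32, Nmnat3, Hemgn, Smim1 and the 3 globins. Runx1, Myb, Gfi1, Itgb3, Gpr56, Angpt1 and Nupr1 had no such gap.

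Genes of general endothelial identity gave 1 call, and most had values below 0. A missing call does not show that levels were equal. Cdh5, the endothelial cadherin, was at 739, 521 and 898 CPM in pro-HSC/HPC and at 756, 602 and 997 CPM in HE (-0.13 ± 0.29, edgeR adjusted p = 1), with same-numbered libraries in the same order. Pecam1, which encodes CD31, was at 287, 358 and 343 CPM against 298, 430 and 427 CPM (-0.22 ± 0.32, edgeR adjusted p = 1). Of 30 tested endothelial genes 1 fell and none rose, beside 0.151% and 0.505% of all genes tested, and the list median was -0.31. In 26 of the 30 the value was negative, in 9 all pro-HSC/HPC libraries lay below HE (6.86% of all genes did), and 6 were lower and 0 higher at an unadjusted p under 0.05. The gene that fell, the ETS factor Ets1, was at 221, 204 and 207 CPM in pro-HSC/HPC and at 446, 503 and 390 CPM in HE (-1.08 ± 0.21, edgeR adjusted p = 0.008), and lost its call without HE replicate 2 (edgeR adjusted p = 0.06). Kdr, the main VEGF receptor, was at 201, 154 and 222 CPM in pro-HSC/HPC against 421, 345 and 386 CPM in HE, with no overlap but no call (-1 ± 0.27, edgeR adjusted p = 0.093). With the replicate block 5 genes of the list were called lower, Ets1, Kdr (edgeR adjusted p = 0.02), Flt1, Emcn and Cd93. Kdr was also called in DESeq2 (DESeq2 adjusted p = 0.015) and with the 6 libraries alone in the fit (edgeR adjusted p = 0.032).

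Arterial and venous genes differed in their calls. None of 24 tested arterial genes was called in edgeR, with 3 lower and 0 higher at an unadjusted p under 0.05, and the list median was -0.16. The arterial connexin gene Gja5 was at 150, 102 and 217 CPM in pro-HSC/HPC and at 214, 140 and 156 CPM in HE (-0.12 ± 0.53, edgeR adjusted p = 1). Sox17, a factor of arterial endothelium and HE, was at 32.7, 21.2 and 49.1 CPM against 53.2, 38.5 and 72.9 CPM, lower in each same-numbered pair but overlapping (-0.68 ± 0.44, edgeR adjusted p = 0.95). Whether the arterial and venous lists differ was not tested. With the replicate block 1 arterial gene, the connexin gene Gja1, was called lower.

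Of 13 tested venous and lymphatic genes 3 fell, beside 0.151% of all genes tested, and the list median was -0.90. Nr2f2, which encodes the vein factor COUP-TFII (chromosome 7, 77496836 to 77511632, minus strand in mm9), was at 15, 13.4 and 11.7 CPM in pro-HSC/HPC and at 192, 262 and 196 CPM in HE (-4.02 ± 0.76, edgeR adjusted p = 0.0056). Aplnr, the apelin receptor of veins, was at 17.6, 24.2 and 13.9 CPM against 116, 140 and 152 CPM (-2.87 ± 0.55, edgeR adjusted p = 0.0063). Flt4, the VEGF-C receptor of veins and lymphatics, was at 64.2, 86.5 and 64.4 CPM against 215, 290 and 206 CPM (-1.73 ± 0.28, edgeR adjusted p = 0.00096). For all 3 genes the groups were far apart and replicate 1 of pro-HSC/HPC stood with the other 2. Aplnr lost its call without pro-HSC/HPC replicate 3 (edgeR adjusted p = 0.054), and with replicate 1 as the sole pro-HSC/HPC library none of the 3 was called, at values of -3.84, -2.94 and -1.87. Ephb4, a receptor of veins, and Vwf, the von Willebrand factor gene, also on this list, overlapped between the groups. Emcn, on this list too, was called lower under the replicate block.

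The other genes that fell had varied known functions. Ccnd1, the cyclin D1 gene (chromosome 7, 152115836 to 152125830 in mm9), was at 24.5, 31.6 and 35.5 CPM in pro-HSC/HPC and at 122, 163 and 205 CPM in HE (-2.42 ± 0.32, edgeR adjusted p = 1e-04), and it was the 1 lower gene called in every alternative tried. Etv5 (4.41 ± 0.315 and 18.2 ± 5.97 CPM, -2.05 ± 0.41, edgeR adjusted p = 0.01) and Dusp6 (132 ± 27.9 and 262 ± 22.6 CPM, -0.99 ± 0.22, edgeR adjusted p = 0.022) are known to respond to FGF and ERK signalling. Sgk1, a kinase induced by serum and steroids, was at 20.7, 34.8 and 18.5 CPM in pro-HSC/HPC against 60.0, 130 and 97.1 CPM in HE (-1.96 ± 0.45, edgeR adjusted p = 0.03). Prtg, the immunoglobulin superfamily gene protogenin, was at 53.2, 82.3 and 60.6 CPM against 196, 254 and 244 CPM (-1.82 ± 0.33, edgeR adjusted p = 0.0037). Cda, a cytidine deaminase, Lpar1, a receptor of lysophosphatidic acid, Hecw2, a ubiquitin ligase, Tspan15, a tetraspanin, and Rgl1, a Ral activator, had log2 differences between -2.28 and -1.81. Pde2a, a phosphodiesterase of cyclic nucleotides, was at 5.77, 15.3 and 10.4 CPM in pro-HSC/HPC and at 39.3, 42.6 and 53.8 CPM in HE (-2.11 ± 0.51) and lay just inside the threshold. Gng2, a G protein subunit (-1.51), the kinase anchor gene Akap12 (-0.99) and Rhoj, a small GTPase of endothelium (-1.02), also fell, and their groups did not overlap. Etv5 lost its call without HE replicate 1 or pro-HSC/HPC replicate 2 or 3 (edgeR adjusted p 0.052 to 0.092), Hecw2 without HE replicate 3 (0.051), and Dusp6, Sgk1, Cda and Lpar1 in 4 or 5 of the 6 runs (0.051 to 0.19). Pde2a and Rhoj lost theirs in all 6 and Akap12 in 2, while Prtg, Tspan15, Rgl1 and Gng2 kept theirs in all 6.

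Growth and metabolism lists showed few calls. None of 30 S phase genes and none of 25 mitosis genes was called in edgeR, with no gene of either at an unadjusted p under 0.05, and their medians were 0.18 and -0.06. Ccnd1 was the 1 call of 13 tested D cyclin and Cdk inhibitor genes and of 21 target genes of Notch, BMP, TGF-beta and Wnt, and Mycn was the 1 call of 28 genes of ribosome biogenesis and MYC (median 0.05). Hes1, a Notch target, was at 36.7, 35.7 and 34.7 CPM in pro-HSC/HPC against 77.3, 49.9 and 114 CPM in HE, with no overlap but no call (-1.17 ± 0.42, edgeR adjusted p = 0.39). No gene of 28 for junctions, matrix and blood flow (median -0.30), of 18 for heme synthesis and iron (median 0.42) or of 27 for interferon and inflammation (median 0.15) was called in edgeR. At an unadjusted p under 0.05 these 3 lists held 1, 3 and 3 higher and 6, 0 and 1 lower genes. Alas2, the first enzyme of heme synthesis in red cells, was at 2.43, 31.8 and 10.2 CPM in pro-HSC/HPC against 0.473, 0.567 and 1.73 CPM in HE (edgeR adjusted p = 0.13), highest in the 2 libraries with hemoglobin reads. With the replicate block Ifitm1 and Ifitm3, whose reads may be split among copies, and the catenin gene Ctnna1, lower, were called.

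**Figure D4:**
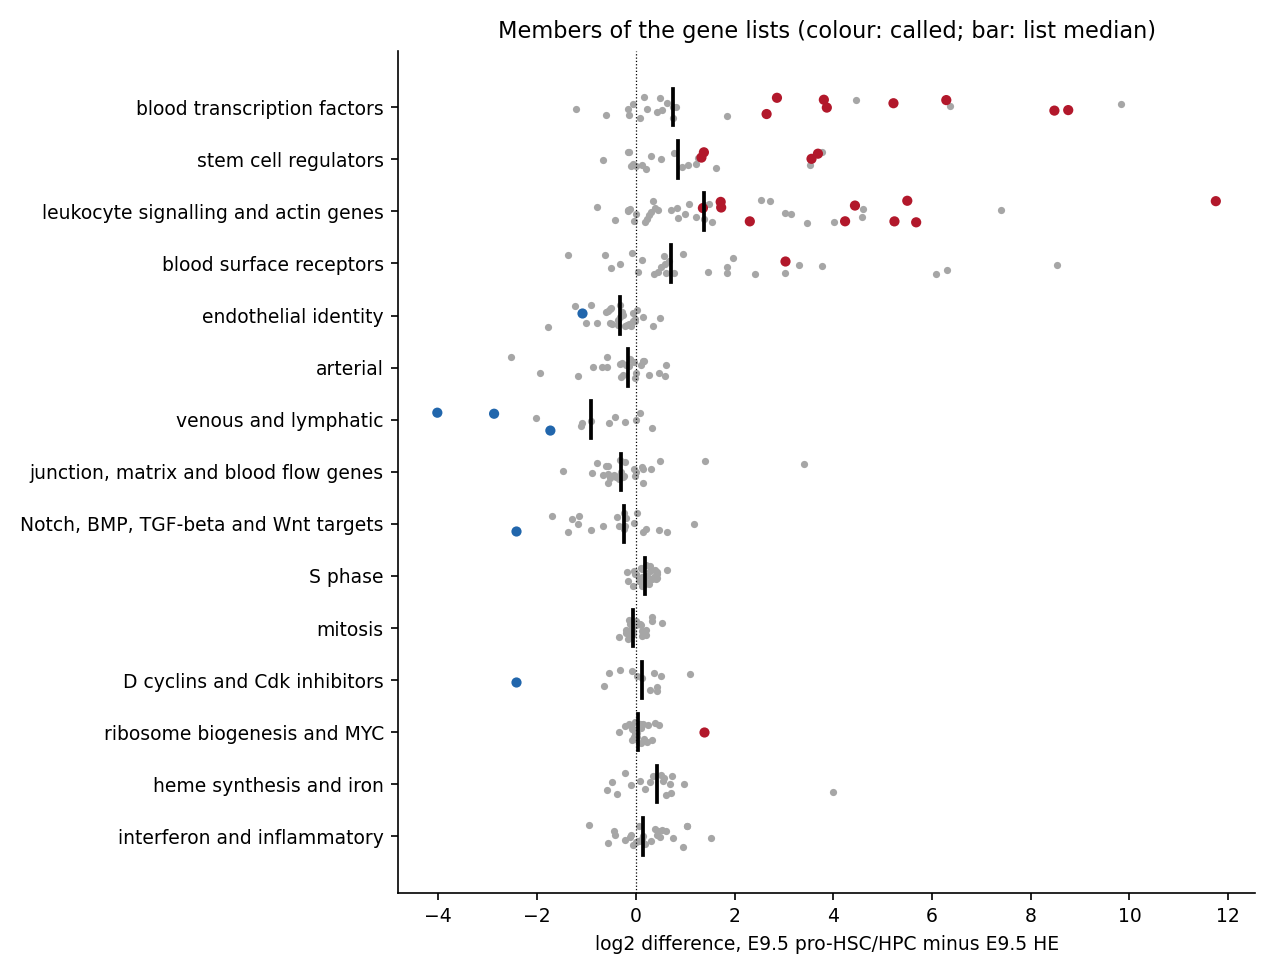
Log2 difference of E9.5 pro-HSC/HPC minus E9.5 HE for each tested member of 15 gene lists, 1 row a list. Coloured points were called (red higher, blue lower), grey points were not, and the black bar is the list median; red points lie in 5 lists, most of them in the first 3.

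A similar step a day later, with another blood population and tissue label, offered a view of these genes in libraries outside the E9.5 groups. All 28 libraries shared the filter, the scaling and the estimate of the spread. At E10.5, pre-HSC I against HE gave 1049 calls (6.88%), 470 higher and 579 lower. Of the 100 genes called at E9.5, 67 were also called at E10.5, all in the same direction, 53 higher and 14 lower. That is 67% of the E9.5 calls and 6.39% of the E10.5 calls, and the comparisons share an estimate of the spread though no library. Hbb-y and Hbb-bh1 are 2 of the 67. In pre-HSC I they ranged over libraries from 5.14 to 814 CPM and from 1.57 to 244 CPM, and hemoglobin genes held 0.173% of the counts of replicate 3 against 0.00145% and 0.00136% in replicates 1 and 2, whose part in these 2 calls was not tested. Of the other 33 genes 27 had the same sign at E10.5. They include Nupr1 (4.68 at E9.5 and 1.49 at E10.5), Pf4 (7.94 and 1.88), Ccnd1 (-2.42 and -0.91) and Aplnr (-2.87 and -1.44).

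Whether a gene's difference at E9.5 itself differed from that at E10.5 was tested as a difference of both steps, which called 11 genes (0.0722%). There were 1544 genes at an unadjusted p under 0.05, and the replicate block, which the main fit leaves out, gave 527 calls. That block also pairs same-numbered libraries at E10.5, where the pairing was not checked. For Ptpn7, a phosphatase of blood cells that acts on MAP kinases, the step was -0.70 at E9.5 and 4.68 at E10.5, with 7.40 ± 0.403 CPM in pro-HSC/HPC, 12.1 ± 5 in E9.5 HE, 25.3 ± 3.55 in pre-HSC I and 0.988 ± 0.496 in E10.5 HE (difference -5.38 ± 0.77, edgeR adjusted p = 0.002). Hk2, a hexokinase of glycolysis, stepped by -0.44 and 2.10 (difference -2.54 ± 0.37, edgeR adjusted p = 0.002), and Samsn1, an adaptor of blood cells, by -0.52 and 3.00 (difference -3.52 ± 0.55, edgeR adjusted p = 0.0041). In these 3 genes the mean of pro-HSC/HPC was below that of E9.5 HE, and each kept its call in every run without 1 E9.5 library. The other 8 calls each lost theirs in at least 4 of the 6 runs. Only 1 of the 11, the serpin gene Serpina3g, was among the 100 genes of E9.5: it had no count in E9.5 HE, 3.00, 2.25 and 3.34 CPM in pro-HSC/HPC, and 23.7 ± 7.99 and 11 ± 7.12 CPM in pre-HSC I and E10.5 HE.

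**Figure D5:**
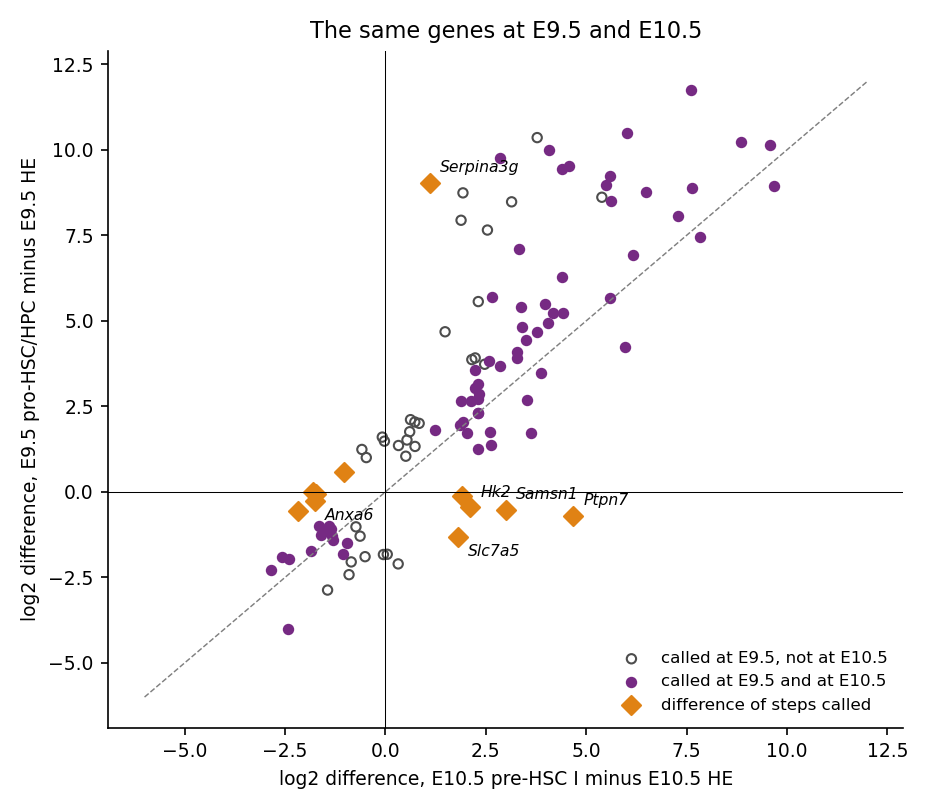
Log2 difference of E9.5 pro-HSC/HPC minus E9.5 HE (vertical axis) against E10.5 pre-HSC I minus E10.5 HE (horizontal axis) for the genes called at E9.5 and those whose steps differed. Open circles were called at E9.5 and not at E10.5 (33), purple circles on both days (67), and orange diamonds are the 11 genes called for the difference of both steps, with Serpina3g as 1 of them; the dashed line marks equal steps.

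Levels over the whole series, given here without a test, placed the E9.5 values. Nr2f2 averaged 13.4 ± 1.62 CPM in pro-HSC/HPC and 216 ± 39.1 CPM in E9.5 HE, beside 490 ± 39.1 CPM in E9.5 endothelial cells (EC), 15.5 ± 10.1 CPM in pre-HSC I and 83.5 ± 96.9 CPM in E10.5 HE, where the libraries were wide apart. Gpr56 averaged 117 ± 4.71 CPM in pro-HSC/HPC, with 9.06 ± 4.70 CPM in E9.5 HE, 47.9 ± 9.66 CPM in E10.5 HE, 344 ± 23.4 CPM in pre-HSC I and 479 ± 35.1 CPM in pre-HSC II. Angpt1 (65.1 ± 8.71, with 5.49 ± 1.05, 46.6 ± 13.5, 220 ± 22.7 and 288 ± 46.7 CPM in the same groups) and Myb (43.0 ± 6.15, with 0.536 ± 0.57, 7.71 ± 5.03, 163 ± 44.5 and 231 ± 24.4 CPM) had their highest means in pre-HSC II as well. Pro-HSC/HPC thus lay between HE and the later blood populations for these 3 genes. Nupr1 and Pf4 had their highest mean in pro-HSC/HPC, Pf4 at 254 ± 267 CPM with an SD above the mean. Nupr1 averaged 232 ± 33.0 CPM there, with 9.04 ± 2.57 CPM in E9.5 HE, 181 ± 48.6 CPM in pre-HSC I and 39.4 ± 10.2 CPM in pre-HSC II, where pre-HSC I and pro-HSC/HPC were within their spread. Sfrp2, a secreted modulator of Wnt signalling, averaged 124 ± 8.16 CPM in pro-HSC/HPC (25.3 ± 7.78 CPM in E9.5 HE) and 135 ± 18.3 CPM in pre-HSC I.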

How the data were processed

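Whole-number read counts per gene, as the authors deposited them in 1 table, were used for 28 libraries, with 6 of them in the E9.5 comparison and 6 in the E10.5 one. The submitters' processing notes name TopHat, SAMtools, Subread, featureCounts 1.6.2 and the build mm9, without settings, and the strand setting is not given in the sources used here, so reads of overlapping, antisense or near-identical genes may be shared. Gene length, another deposited column, entered no value. Genes were kept by edgeR's filterByExpr (minimum count 10). All 28 libraries were fitted in edgeR 4.0.16 (R 4.3.3) with 1 coefficient per population, TMM scaling and the quasi-likelihood test, with Benjamini-Hochberg adjustment over all 15238 genes and a threshold of 0.05. Levels are CPM on TMM-scaled totals. The spread corresponded to a biological coefficient of variation of 0.563. On data simulated for this comparison with 14756 genes, 22.4%, 88.1% and 100% of genes changed by 2-, 4- and 8-fold were recovered. The changed genes were drawn from those with a mean of at least 10 CPM over both E9.5 groups. The simulated spread followed its trend over level and left out the spread particular to single genes. These shares therefore do not apply to lower genes or to genes of wider spread. No pair of replicates differed by as little as sampling noise (the lowest chi-square over its degrees of freedom was 52.6).

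Same-numbered libraries of both E9.5 groups deviated together over 8164 genes (r = 0.24, 0.58 and 0.46). Libraries of unlike number had r between -0.51 and 0.09. Deviations from a mean of 3 libraries offset one another, so these values are not independent. The labels give replicate numbers only, and the number was taken to pair the libraries on these values alone. The main fit leaves this pairing out, and all values not marked as from the block or another alternative come from it. The fit with a replicate block pairs libraries within each day, though the pairing was checked for the E9.5 groups only. It is given beside the list counts and named genes whose call it changes. Not every such gene is named. Genes with no count in HE were set against 3 counts over the HE libraries, and those with 1 to 3 counts were given a ratio with its 95% interval. Named were the 15 largest rises and 12 largest falls among called genes with at least 10 CPM in the higher group, no overlap and a gene symbol that is no model or small RNA, up to 4 leading members of each list where the text turns on them, a panel of 24 blood and endothelial genes, and 5 leading genes of the difference of steps; other names were chosen after their values were seen. Members and gene lists were chosen with earlier results of these data known. Alternatives used DESeq2 1.42.0, limma voom 3.58.1, other scalings and filters, fewer populations, no hemoglobin genes, and fits without single libraries. Populations other than those compared enter through the spread and the levels.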

Additional observations from a re-analysis of the deposited data

Results flagged for a closer look

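A total of 11 genes were picked out because edgeR's test of the difference itself found that their E9.5 step (pro-HSC/HPC minus HE) differed from their E10.5 step (pre-HSC I minus HE) at a Benjamini-Hochberg adjusted p under 0.05. Log2 differences below 0, a more positive step at E10.5, were found for Ptpn7 (-5.38), Samsn1 (-3.52), Slc7a5 (-3.13), Hk2 (-2.54) and Gmfg (-2.02). Slc7a5 encodes an amino acid transporter and Gmfg an actin regulator of blood cells. Values above 0 were found for Serpina3g (7.93, a fitted value that rests on no count in E9.5 HE and is no bound), St6galnac3 (1.81), C430049B03Rik (1.66), Cald1 (1.61), Mapk3 (1.6) and Anxa6 (1.5). Cald1 encodes caldesmon, which binds actin, Mapk3 the kinase ERK1 and Anxa6 a membrane-binding annexin. For Anxa6 the steps were -0.26 at E9.5 and -1.76 at E10.5, and for St6galnac3, a sialyltransferase gene, 0.01 and -1.80. The 3 genes that kept the call in each of the 6 runs without 1 E9.5 library were Ptpn7, Hk2 and Samsn1. All 11 were called with the replicate block, whose pairing was not checked at E10.5.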

How the results depend on the processing

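The count of called genes, 100 with 77% higher, was 218 in DESeq2 (66.1% higher), 192 in limma voom (65.6%), 155 with no filter, 201 with the 6 libraries alone (63.7%), 202 with the 9 libraries of E9.5 (52%), 218 with the replicate block, which pairs same-numbered libraries (60.6%), and 24 without pro-HSC/HPC replicates 2 and 3 (91.7%), where 1 library is assumed to vary like the other groups. Leaving out 1 library gave 50 to 85. The count for the difference of steps, 11, was 193 in DESeq2, 117 in voom, 30 with no filter, 47 with a stricter filter, 527 with the replicate block, 2 without replicates 2 and 3, and 3 to 6 without 1 library. The causes were not tested. Over 114 followed genes, 1541 values kept direction and call, 364 kept direction but lost the call, 16 gained one and 6 reversed. The reversals were Hba-x (-2.33) and Hbb-bh1 (-2.03) without replicates 2 and 3, and, both never called, Cdh5 (-0.32 to 0.08 without 1 library, with 0.06 and 0.08 reversed) and Gja5 (-0.43 to 0.11, with 0.11 and 0.08 reversed). Of the 100 genes, 40 kept their call in each run without 1 library and 22 in every alternative; the block kept 97, all but the 3 globins. Depth limits genes near 3 counts, or 0.111 to 0.142 CPM.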
